A study of Mus musculus with 6 samples.

Results

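Tuft cell genes are a set of 10 named mouse genes, Pou2f3, Dclk1, Trpm5, Il25, Alox5, Avil, Gnat3, Sucnr1, Il17rb and Ptgs1, out of 21911 protein-coding genes in the annotation. They were chosen by name as genes known from tuft cells and not by their measured values, though earlier results of these data were known. A peak was assigned to a gene when its summit, the position of its highest signal, lay in the gene body or within 10 kb on either side of it. This gave 33 consensus peaks (overlapping peaks of the 6 samples merged into one) of 71286 in the whole series, on GRCm38 throughout.

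Cells dissociated from mouse intestinal crypts were assayed by ATAC-seq, in which the Tn5 transposase inserts sequencing adapters into accessible DNA and a peak marks a region with more insertions than its surroundings. There were 6 libraries, 3 labelled Arid3a WT (called WT) and 3 labelled Arid3a KO (called Arid3a cKO, or cKO), and the comparison asks how loss of Arid3a, which encodes a DNA-binding protein with a preference for A+T-rich sequence, changes accessibility. The conditional line is given in the study's methods as VillinCre-ERT2 with floxed Arid3a (fl/fl), so that deletion takes place in Villin-expressing epithelial cells and other cells of the preparation keep the gene. WT and cKO animals alike were given tamoxifen for 3 days in a row, and tissue was taken 1 month after the first injection. The age of the animals and the further alleles of the WT group were not given in the sources used here. The labels number the samples 1 to 3 per genotype without saying that each is a separate animal, so the p-values measure the spread between these samples, which may be technical.

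Tuft cells are rare chemosensory cells of the intestinal epithelium with a tuft of long microvilli on their free surface. They depend on the transcription factor Pou2f3, use a taste-like signalling cascade to sense luminal metabolites such as succinate, and release IL-25 and eicosanoids in response to parasites and microbes. IL-25 drives type 2 immunity, and IL-13 from immune cells in turn increases the number of tuft cells. In a crypt preparation they are a minor population. Fewer tuft cells and a lower accessibility per tuft cell cannot be told apart in these bulk libraries.

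The WT lists, in the order of their numbers, held 40492, 50704 and 55091 peaks, and the cKO lists 58297, 46415 and 51464. WT 1 was the shortest. The windows of the 10 genes took 14, 25 and 27 peaks in the WT lists and 22, 21 and 21 in the cKO lists, so WT 1 also had the fewest here. Promoters of 10 leukocyte genes, among them Ptprc and Cd3e, had a peak in no list. Promoters of 10 mesenchymal and endothelial genes had one in all 6 lists for 2 genes and in none for 6, and those of 10 stem cell genes in all 6 for 8 genes. The promoter of Arid3a itself was called in all 6 lists, which does not check the deletion.

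A promoter was counted as called when a summit lay from 1000 bp upstream to 100 bp downstream of an annotated transcript start. Among the tuft cell genes, Pou2f3, Trpm5 and Il17rb had a promoter peak in all 6 lists. Avil had one in 4 lists, Alox5 in 3, Ptgs1 in 2 and Dclk1 in 1. Gnat3, Sucnr1 and Il25 had none. The 3 of 10 called in all 6 lists stand beside 44.5% of all protein-coding genes, and the 3 of 10 called in no list beside 38.3%. When any peak sharing a base with the promoter was counted, the same 3 genes were called in all 6 lists, beside 58.6% of all genes. Enterocyte genes had 4 of 10 promoters called in all 6 lists, goblet genes 2 of 10 and enteroendocrine genes 1 of 10. With peaks sharing a base these became 6, 4 and 2 of 10. The stem cell genes then had 10, the mesenchymal and endothelial genes 4 and the leukocyte genes 0 of 10.

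**Figure D1:**
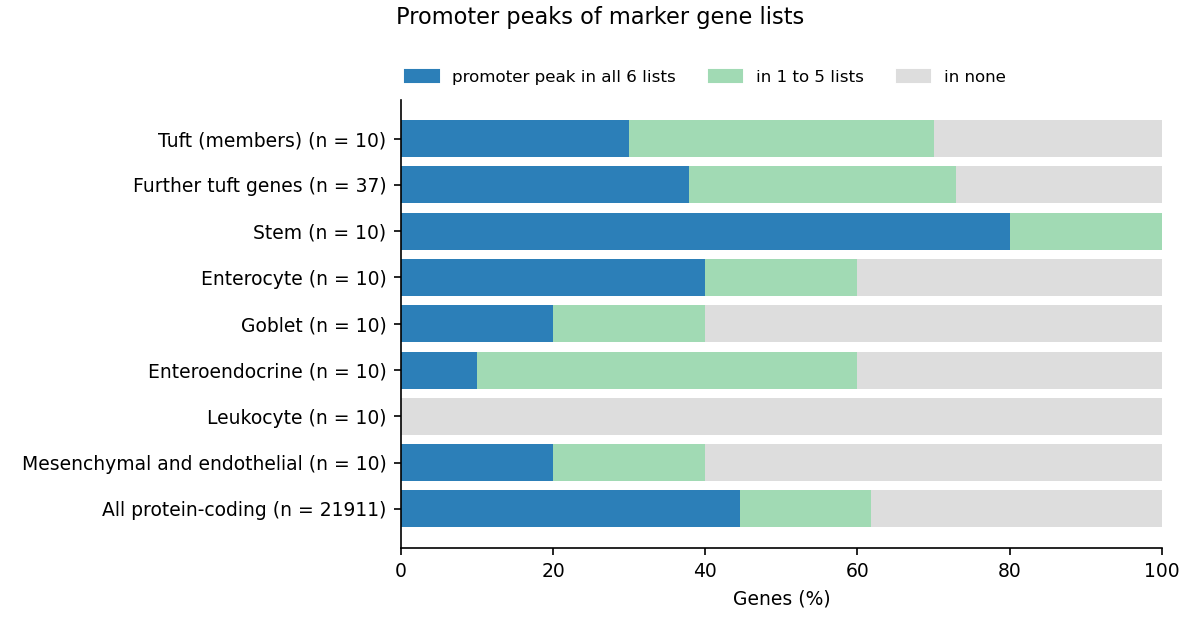
Share of genes (%, horizontal axis) whose promoter held a peak summit in all 6 lists, in 1 to 5 lists or in none, for the 10 tuft cell genes, 37 further tuft genes, 6 lists of 10 marker genes and all 21911 protein-coding genes. The tuft cell genes had 3 promoters called in all 6 lists, 4 in some and 3 in none, and the leukocyte genes had all 10 in none.

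Peaks were scattered unevenly over the loci. Of the 33 consensus peaks, 14 were called in all 6 lists, beside 45.9% of all consensus peaks, and 8 in 1 list only, beside 20.9%. Those called in all 6 were spread over 6 genes, 3 each at Pou2f3, Trpm5, Il25 and Il17rb and 1 each at Avil and Sucnr1. For 8 of these 14 the nearest transcript start belonged to another gene. Gnat3 was the 1 gene of 10 with no peak in its window in any list, beside 21.9% of all genes. Of the 33 peaks, 0 were called in all 3 cKO and no WT lists, beside 0.464% of all consensus peaks, and 0 in all 3 WT and no cKO lists, beside 0.111%.

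**Figure D2:**
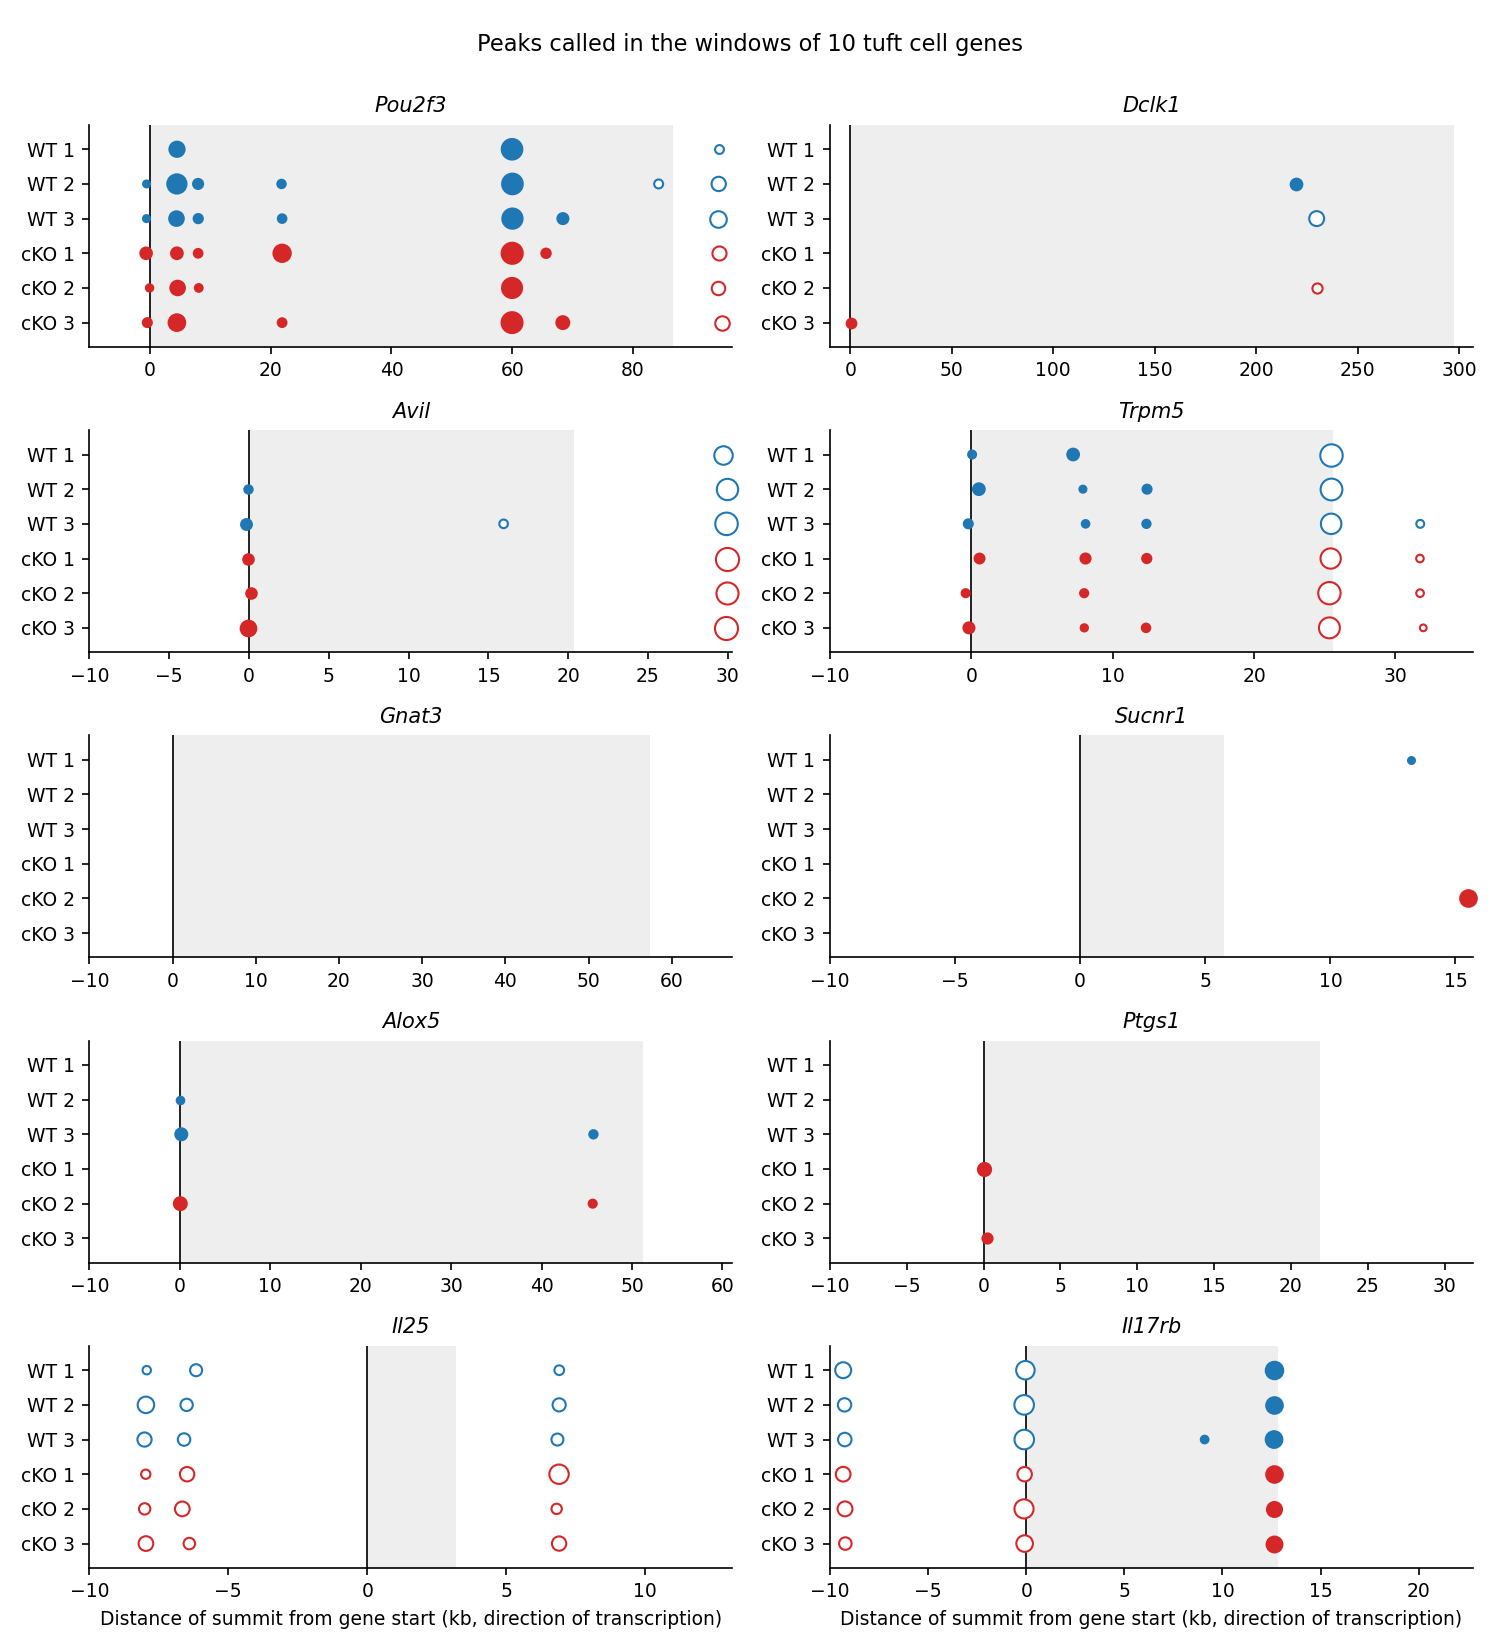
Peak summits in the windows of the 10 genes, by distance from the gene start (kb, in the direction of transcription, the gene body shaded) and by library (rows, WT in blue and cKO in red). Each point is the peak of highest fold enrichment of a library in a consensus peak, its area grows with its percentile of fold enrichment, and open points are nearest to the start of another gene. Pou2f3 and Trpm5 carry peaks in every row, Gnat3 in none, and the peaks of Il25 are all open points outside the gene.

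Peak strength was compared through the fold enrichment of the peak over its local background, ranked within each list. The percentile used below places a peak among the 32748 peaks called in all 6 lists, with 100 for the highest fold enrichment. A genotype difference was tested for all 32748 peaks with limma on normal scores of these ranks, with Benjamini-Hochberg adjustment and a threshold of 0.05. An exact two-sided permutation test over the 3 and 3 samples is given beside it, and its smallest possible p is 0.1.

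Pou2f3 (ENSMUSG00000032015.16), the POU-domain factor that specifies the tuft lineage, lies on the minus strand of chromosome 9 from 43123939 to 43210369. It had 3, 9 and 8 peaks in the WT lists and 7, 5 and 6 in the cKO lists. The groups overlap, and WT 1 had the fewest. The strongest was an intronic peak 60.0 kb into the gene, with its summit at 43150380. Its percentiles were 72.8, 73.5 and 69.9 in WT and 76.8, 68.7 and 75.8 in cKO, from fold enrichments of 8.21, 11.3 and 10.7 and of 11.1, 9.45 and 9.72. This peak held nearly the same rank in every library. The cKO mean of 73.8 ± 4.44 exceeded the WT mean of 72.1 ± 1.89 (SD, n = 3 each) by 1.69 percentile points (exact permutation p = 0.6, limma adjusted p = 0.952).

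A second peak called in all 6 lists lay at the start of the shorter protein-coding Pou2f3 transcript, at 43205755, with its summit at 43205882. Its percentiles were 35.8, 62.3 and 32.3 in WT and 17.7, 32.1 and 44.4 in cKO. The groups overlap, with WT 2 highest and cKO 1 lowest. The means were 43.5 ± 16.4 and 31.4 ± 13.4, a difference of -12.1 points (exact permutation p = 0.4, limma adjusted p = 0.756). It was -2.82 points without WT 2, -5.20 without cKO 1 and -18.5 without cKO 3. The start of the longer transcript, at 43210369, had a weaker peak in 5 lists, at percentiles of 0.843 and 1.03 in WT 2 and WT 3 and of 17.1, 2.02 and 7.07 in cKO 1, 2 and 3. It was missing in WT 1. The remaining Pou2f3 peaks called in 1 to 4 lists lay in introns. One more peak called in all 6 lists, 94.2 kb from the gene start, was nearest to Tmem136.

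The sequence around the summit of the intronic peak is shown because it was the highest-ranked peak of the gene that specifies tuft cells. It is given 5′ to 3′ on the strand of the gene. Capitals mark a GATA match, here TTATCT, the reverse complement of AGATAA. A match is no evidence that a factor was bound.
Pou2f3 intron, chr9:43150280-43150480, minus strand: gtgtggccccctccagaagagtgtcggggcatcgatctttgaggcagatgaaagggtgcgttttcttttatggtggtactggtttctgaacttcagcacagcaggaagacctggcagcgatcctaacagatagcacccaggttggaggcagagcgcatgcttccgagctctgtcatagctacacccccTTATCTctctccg

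Avil and Dclk1 are the genes of the set with cytoskeletal roles. Avil (ENSMUSG00000025432.11; chromosome 10, 127000709 to 127020994, plus strand) encodes advillin, an actin-binding protein of the tuft microvilli. A peak at its start was called in 5 lists, at percentiles of 4.96 and 14.1 in WT 2 and WT 3 and of 12.8, 12.7 and 38.7 in cKO 1, 2 and 3, and it was missing in WT 1. In cKO 2 the summit lay inside the gene, beyond the promoter limit. The 150 bases upstream of the start are shown as an example of a tuft cell promoter called in most libraries, with a GATA match in capitals.
Avil promoter, chr10:127000559-127000708, plus strand: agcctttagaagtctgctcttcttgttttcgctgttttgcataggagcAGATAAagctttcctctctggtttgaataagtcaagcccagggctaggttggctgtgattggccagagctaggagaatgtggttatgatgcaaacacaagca

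The highest-ranked peak in the Avil window belonged to the promoter of Tsfm, a mitochondrial translation elongation factor, 29.9 kb from the Avil start. Its percentiles were 57.4, 78.6 and 89.0 in WT and 94.3, 84.9 and 93.9 in cKO. WT 1 and WT 2 lay below all cKO libraries and WT 3 between them. The difference of 16.0 points was the 1 of 14 member peaks with an unadjusted limma p under 0.05 (p = 0.0196, adjusted p = 0.657, exact permutation p = 0.2), beside 7.22% of all peaks. Without WT 1 it fell to 6.34 points and by rank of −log10 p to 10.2 points, and in neither case was the unadjusted limma p under 0.05. This was also so on log2 folds and without cKO 1 or cKO 3. Without WT 3 the difference rose to 22.9 points.

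Dclk1 (ENSMUSG00000027797.15; chromosome 3, 55242364 to 55539068, plus strand), a microtubule-associated kinase widely used as a tuft cell marker, had few called peaks. It had 0, 1 and 2 peaks in WT and 0, 1 and 1 in cKO over a gene of 296.7 kb. None of its 4 consensus peaks was called in more than 2 lists. Both WT 3 peaks and the cKO 2 peak were nearest to the start of Gm21954. The highest-ranked of the 4 lay in the Gm21954 promoter, 229.7 kb into the gene. It was called in WT 3 and cKO 2, at percentiles of 34.6 and 11.5. An internal promoter 219.5 kb into the gene was called in WT 2 at percentile 17.7, and the peak nearest the gene start in cKO 3 at percentile 9.62.

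Trpm5, Gnat3 and Sucnr1 belong to the chemosensory pathway. Trpm5 (ENSMUSG00000009246.14; chromosome 7, 143069153 to 143094642, minus strand) encodes the calcium-activated cation channel that depolarises the cell after receptor activation. Its start peak was called in all 6 lists but was weak, at percentiles of 3.75, 17.8 and 6.99 in WT and 10.2, 4.03 and 14.9 in cKO. The groups overlap fully (difference 0.19 points, exact permutation p = 0.9, limma adjusted p = 0.976). A summit lay within the promoter of the protein-coding start in 5 lists, and the call in the sixth came from an internal retained-intron start. The ranked summit itself lay in this promoter in 4 lists, and in WT 2 and cKO 1 it lay further inside the gene. An intronic peak 8.0 kb into the gene was also called in all 6 lists, at percentiles of 17.8, 1.10 and 2.59 in WT and 11.1, 4.21 and 1.62 in cKO. WT 1 was highest and the groups overlap.

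A much stronger peak at the end of the Trpm5 gene was the promoter of Tssc4, with percentiles of 88.1, 82.6 and 72.0 in WT and 70.6, 87.3 and 75.5 in cKO. The groups overlap (limma adjusted p = 0.903). It gave Trpm5 its place among the 3 highest-ranked loci in every list, as the Tsfm promoter did for Avil. The intronic peak did so for Pou2f3, and these 3 genes held the first 3 places in each of the 6 lists.

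Gnat3 (ENSMUSG00000028777.8; chromosome 5, 17962549 to 18019834, plus strand) encodes gustducin, the G protein alpha subunit of taste signalling, and no peak was called in its window in any library. A gene with no call may still be open below the detection limit of the caller. Its promoter had a G+C content of 33.8% from 500 bp upstream to 100 bp downstream of the start, the lowest of the 10. The bases before the gene starts of Trpm5, with a summit in the promoter in 5 lists, and Gnat3, with one in none, are set side by side. Neither held any of the 5 motifs searched, so nothing is in capitals.
Trpm5 promoter, chr7:143094643-143094792, minus strand: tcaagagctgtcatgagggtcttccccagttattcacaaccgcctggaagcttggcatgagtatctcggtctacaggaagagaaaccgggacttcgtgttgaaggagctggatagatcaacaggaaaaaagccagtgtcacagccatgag
Gnat3 promoter, chr5:17962399-17962548, plus strand: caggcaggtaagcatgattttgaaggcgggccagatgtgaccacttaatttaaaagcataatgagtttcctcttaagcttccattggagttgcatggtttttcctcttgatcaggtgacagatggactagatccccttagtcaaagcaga

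Sucnr1 (ENSMUSG00000027762.6; chromosome 3, 60081869 to 60087566, plus strand) encodes the receptor for succinate. Its promoter was called in no list. A weak peak 13.2 kb from the start was called in WT 1 only, at percentile 0.824. The nearest peak called in all 6 lists lay 15.8 kb downstream of the start, at the edge of the window, and only the summit of cKO 2 fell inside it. Its percentiles were 49.7, 57.6 and 44.8 in WT and 34.7, 44.6 and 47.0 in cKO. Just 1 cKO library, cKO 3, exceeded the lowest WT value (difference -8.61 points, exact permutation p = 0.2, limma adjusted p = 0.810). Leaving out WT 2, cKO 1 or WT 3 gave -5.20, -4.87 or -11.5 points, and ranking by −log10 p turned the sign to 0.83. Its sequence, which held no match, is shown because it was the one peak assigned to the gene that was called in all 6 lists.
Sucnr1 downstream, chr3:60097530-60097730, plus strand: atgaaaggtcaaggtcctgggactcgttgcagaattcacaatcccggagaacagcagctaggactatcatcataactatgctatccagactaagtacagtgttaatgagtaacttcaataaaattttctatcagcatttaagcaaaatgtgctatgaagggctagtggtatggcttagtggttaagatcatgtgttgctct

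Alox5 and Ptgs1 encode the enzymes that open the leukotriene and prostaglandin pathways, 5-lipoxygenase and cyclooxygenase-1. Alox5 (ENSMUSG00000025701.12; chromosome 6, 116410077 to 116461178, minus strand) had a promoter peak in WT 2, WT 3 and cKO 2, at percentiles of 2.59, 18.98 and 23.4. A coding-exon peak was called in WT 3 and cKO 2. Ptgs1 (ENSMUSG00000047250.13; chromosome 2, 36230426 to 36252272, plus strand) had a promoter peak in cKO 1 and cKO 3, at percentiles of 24.7 and 11.3, and no peak in any WT list. Since cKO 2 lacked it too, the groups overlap (0.667 more peaks per cKO list, exact permutation p = 0.4, adjusted p = 1 over all genes). It was 0 once every list had the same length. The Alox5 promoter, called in both genotypes, is shown, and it held no motif match.
Alox5 promoter, chr6:116461179-116461328, minus strand: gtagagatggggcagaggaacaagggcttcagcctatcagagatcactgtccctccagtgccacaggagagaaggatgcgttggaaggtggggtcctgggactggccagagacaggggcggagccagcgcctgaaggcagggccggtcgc

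Il25 and Il17rb encode a cytokine and its receptor subunit. Il25 (ENSMUSG00000040770.5; chromosome 14, 54932695 to 54935837, plus strand) had 3 peaks in its window in every list, and all lay outside the gene. Both upstream peaks were nearest to Efs, and the downstream one, 6.9 kb from the start, was nearest to Gm49130. The downstream peak had percentiles of 9.76, 24.9 and 19.2 in WT and 63.8, 12.2 and 31.0 in cKO. The groups overlap, with cKO 1 far above the other libraries and cKO 2 below WT 2 and WT 3. This gave the largest difference of the 14 peaks, 17.7 points, with a cKO mean of 35.7 ± 26.1 against 18.0 ± 7.64 (exact permutation p = 0.4, limma adjusted p = 0.718). It rested on cKO 1, without which it was 3.66 points, and it was 3.79 points when peaks were ranked by −log10 p. Without cKO 2 it was 29.4 points.

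Il17rb (ENSMUSG00000015966.17; chromosome 14, 29996135 to 30008896, minus strand) shares a divergent promoter with Chdh, choline dehydrogenase. The peak there had percentiles of 57.4, 65.0 and 64.8 in WT and 31.7, 61.9 and 44.3 in cKO. All WT libraries except WT 1 lay above all cKO libraries, and cKO 2 lay above WT 1. The cKO mean of 46.0 ± 15.2 was 16.4 points under the WT mean of 62.4 ± 4.36 (exact permutation p = 0.2, limma adjusted p = 0.711). The difference was -9.26 points without cKO 1, -24.2 without cKO 2 and -0.41 when peaks were ranked by −log10 p. A peak in the untranslated part of the last exon had percentiles of 50.2, 44.3 and 45.0 in WT and 44.1, 34.9 and 39.8 in cKO. It was the 1 peak of 14 whose groups did not overlap, with cKO below WT (difference -6.90 points, exact permutation p = 0.1, the smallest possible, and limma adjusted p = 0.846). The gap between the lowest WT and the highest cKO value was under 1 point, and the groups overlapped when the peak was ranked in the whole list (WT 59.5, 63.2 and 66.2, cKO 65.6, 52.3 and 58.5) or among peaks with a −log10 q of at least 5. One more peak, on the Chdh side, overlapped between groups.

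**Figure D3:**
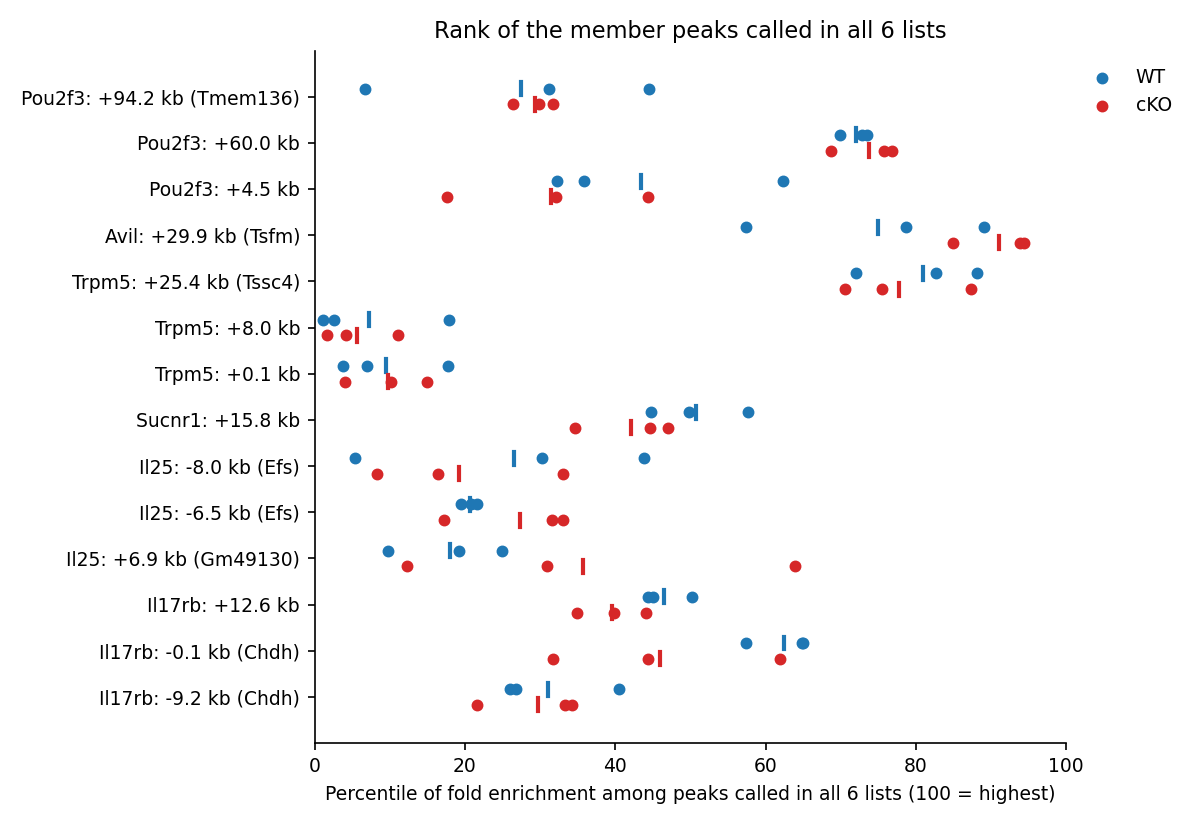
Percentile of fold enrichment (horizontal axis, 100 highest) of the 14 peaks called in all 6 lists, by gene and distance from the gene start, with the gene of the nearest start in parentheses where it is another. Points are libraries and bars are the means of the 3 WT (blue) and 3 cKO (red) libraries. The groups overlap in 13 peaks, and the Il17rb peak at +12.6 kb has all cKO values below the WT values.

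Across the 14 peaks called in all 6 lists, limma called 0 as higher and 0 as lower in cKO, beside 0% and 0% of all 32748 peaks, and the lowest adjusted p was 0.657. The rank was higher in cKO for 6 peaks and lower for 8, with a median difference of -1.47 points beside -0.64 for all peaks. None had all cKO libraries above WT, beside 5.86% of all peaks, and 1 of 14 had all below, beside 6.08%. The median percentile of the 14 peaks was 33.9, where the median of all peaks is 50. The 6 with a member as nearest start had mean percentiles of 6.40 to 72.9 (median 40.2) and the 8 with another gene 22.9 to 83.0 (median 29.4). The 19 peaks called in fewer lists had a median percentile of 7.07 over 45 values, beside 9.62 for all peaks called in fewer than 6 lists, which lie near the limit of the caller by construction.

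Taken per locus, 5 genes had a peak summit in the window in all 6 lists, Pou2f3, Avil, Trpm5, Il25 and Il17rb. Comparing the strongest peak of each, 0 of 5 lay above WT in all cKO libraries and 0 of 5 below, beside 4.57% and 6.5% of 15457 genes. At Avil, Trpm5 and Il25 that peak was nearest to the start of another gene. At Il17rb it was the promoter shared with Chdh, except in cKO 1. The number of peaks per window also overlapped between genotypes for all 9 genes with a peak, beside 0.853% of 17116 genes with more and 0.38% with fewer in every cKO list. The exact permutation p ranged from 0.4 to 1.

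The annotated starts of these genes had few CpG dinucleotides. The observed over expected CpG ratio from 500 bp upstream to 100 bp downstream of the gene start was 0.139 (Trpm5) to 0.320 (Pou2f3) in 9 genes and 0.688 at Il17rb. The median was 0.481 over all protein-coding genes, 0.695 for those with a promoter called in all 6 lists and 0.191 for those called in none. The Trpm5 gene start, called in 5 lists, had a ratio under the median of genes called in none. Motif matches on either strand within 100 bp of the 33 summits were as follows, with no mismatch allowed and no motif contained in another. The GATA match, searched for as AGATAA, was found in 5 windows (15.2%, beside 12.7% of all peaks). The AP-1 site, read as TGACTCA on one strand or the other, was found in 2 (6.06%, 8.11%). HNF4 (CAAAGTCCA or CAAAGTTCA) was found in 2 (6.06%, 2.53%) and ARID3, sought as ATCAAA and in its other common form as ATTAAA, in 4 (12.1%, 16.2%). The octamer of POU factors, ATGCAAAT, was found in 1 (3.03%, 1.26%). With 33 windows these counts are a description. The AP-1 matches were at the Il17rb and Chdh promoter and in Trpm5, and 2 of the 4 ARID3 matches were in Dclk1.

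A further list of 37 genes used by tuft cells placed the set in its pathways. Promoters of 14 had a summit in all 6 lists, of 13 in some and of 10 in none. Of all protein-coding genes, 44.5% had one in all 6 lists and 38.3% in none. With any peak sharing a base 22 were called in all 6 and 9 in none, beside 58.6% of all genes in all 6. Of the transcription factors, Sox4 and Runx1 were called in all 6 lists, Gfi1b in 5, Sox9 in 4 and Spib in 1. Of 8 chemosensory genes, Gng13 and Tas1r1 were called in all 6, Plcb2, which encodes the phospholipase that acts upstream of Trpm5, in 5 and Itpr3 in 4, while Gnb3, Tas1r3 and Ffar3 had none. Plcg2 had no summit in its promoter in any list, but a peak shared a base with it in all 6. None of the 4 eicosanoid genes had a summit in all 6 lists, with Hpgds in 5, Alox5ap and Pla2g4a in 4 and Ltc4s in 1, though a peak shared a base with the Ltc4s and Pla2g4a promoters in all 6. Of the cytokine genes, the receptor genes Il4ra, Il13ra1 and Il17ra were called in all 6 lists and Tslp in 5. Of the kinase and adaptor genes, Ptpn6 and Matk were called in all 6, Fyb in 3 and Bmx, Sh2d6 and Sh2d7 in none. Chat, which makes acetylcholine, Rgs13 and Siglecf had none, Lrmp and Krt18 were called in 4 lists, and the other 4 genes in all 6. Peaks were assigned here by the middle summit of the libraries, by which the Sucnr1 downstream peak would not have counted. The windows of these 37 genes held 75 peaks called in all 6 lists. Limma called 0 of them higher and 0 lower in cKO, and 2 of 75 had an unadjusted p under 0.05 where 7.22% of all peaks did. All cKO libraries lay above WT for 5 and below WT for 8, beside the 5.86% and 6.08% of all peaks.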

How the data were processed

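ATAC-seq peak lists of 3 WT and 3 Arid3a cKO crypt samples were used. The authors processed reads with the nf-core/atacseq pipeline (adapter trimming, BWA alignment to GRCm38, filtering, removal of blacklisted regions) and called narrow peaks per sample with MACS2 without a described input control. The score, fold enrichment (a ratio), −log10 p and −log10 q of each peak are as deposited by the authors. Total reads were not used here, so depth is unknown beyond the list lengths, and the study's read-count test was not possible from peak lists.

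Peaks outside chromosomes 1 to 19, X and Y (61 to 92 per list) were left out, and the others were merged where they shared at least 1 base. Genes were taken from GENCODE M21 and sequences from the RefSeq copy of GRCm38. Folds were ranked among peaks called in all 6 lists and compared with limma 3.58.1 in R 4.3.3 (trend, Benjamini-Hochberg), tested on simulated data, and with exact permutation tests in scipy 1.17.1. Other tools were Python 3.11.15, pandas 2.3.3, numpy 2.4.6, pysam 0.24.0 and matplotlib 3.10.9.

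The members, lists and tests were chosen with earlier results of these data known. For each member the text names its promoter peak and its highest-ranked peak, any peak called in one genotype only or past the threshold, the gene with the nearest start and further tuft genes whose promoters were not called in all 6 lists. Other genes and peaks were named after their values were seen. Alternatives were the rank measure, list length, a −log10 q minimum of 5, the window, the promoter width, the merging of peaks, the trend, a replicate block and leaving out each sample. Counting any peak over the promoter was added after seeing the data. The values of 1 further tuft gene, which stays in every count, and 1 sequence are not reported here.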

Additional observations from a re-analysis of the deposited data

How the results depend on the processing

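The number of member promoters called in all 6 lists stayed at 2 or 3 under every alternative. Limma called 0 of the member peaks under each of the 13 other settings. It also called 0 of all tested peaks in each of them except the replicate block (2 of 32748), so this does not set the member peaks apart. The 14 member peaks called in all 6 lists became 9 with a −log10 q of at least 5, 6 within the gene body, 8 within 5 kb, 47 within 50 kb and 6 when the nearest start had to be the member, the windows holding more or less sequence by construction. Leaving out 1 library gave 13 to 16. The count of loci whose strongest peak did not overlap between genotypes was 0 in the main setting. It was 2 when peaks were ranked by −log10 p (Avil and Trpm5, cKO higher in 2 of 5 loci, where 6.04% of all genes were higher). In both, that peak was the promoter of a neighbour, Tsfm at Avil and Tssc4 at Trpm5. The count was 1 in the gene body only and 1 with the member as nearest start (Il17rb, cKO lower in 1 of 3 loci, where 5.27% and 6.66% of all genes were lower). The cause was not tested.

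The sign of 4 named rank differences changed. The Trpm5 peak at 8.0 kb gave 0.15 points by rank in the whole list and -4.80 to 4.41 with 1 library left out. The Trpm5 start peak gave -1.38 by rank in the whole list, -2.91 by −log10 p and -4.52 to 4.36 with 1 library left out. The Tssc4 promoter gave 1.28 by −log10 p and -7.65 to 0.49 with 1 library left out, and the Sucnr1 downstream peak gave 0.83 by −log10 p. None of these differences passed the threshold in any setting. The other 113 of 126 rank differences under these settings kept their sign. Of 81 differences in peaks per locus, 50 kept their sign, 24 went to or from 0 and 7 changed sign. Pou2f3 was among the 7 (-0.667 became 0.667 peaks with lists of equal length). In the main setting, with all libraries, the counts at each locus overlapped between genotypes. They did not overlap at Pou2f3 or Avil without WT 1, the shortest list (-2.5 and -1.0 peaks, cKO minus WT), nor at Ptgs1 without cKO 2 (1.0). The share of all genes without overlap was not computed for these smaller sets, so the counts do not set these loci apart.

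The deviations of same-numbered samples had correlations of -0.27, -0.0049 and 0.12, and those of differently numbered samples ranged from -0.32 to 0.31. The numbers were not treated as pairs, though with so few samples this check cannot show that there was no pairing. With a replicate block, limma called 2 of 32748 peaks and 0 of the member peaks. With 3 samples per genotype, ranks without read counts and a minor cell population, differences at these loci may have gone undetected. In the main setting limma called 0 of 32748 peaks, although their differences ran from -36.2 to 54.7 points. The lack of calls at the members therefore says little about the size of any difference there.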
